A study of Mus musculus with 12 samples.

Results

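Aldoc, S100b, Clu, Gja1 and Chil1 are 5 genes widely used as markers of astrocytes, and their RNA was followed here across 12 libraries of sorted cells from the adult mouse dentate gyrus. They are 5 of the 10749 genes listed in the deposited table, were given by name, and were chosen with earlier results of these data in view. All 5 were above 0 in every library and passed the filter on low values, as did 8360 of the listed genes in all. Since the genes were picked for how they differ between the populations, their levels below are a description and carry no test.

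The cells came from 8-week-old mice with the LPA1-GFP genotype, a transgene in which green fluorescent protein (GFP) reports the gene of the lysophosphatidic acid receptor LPA1. The line, Tg(Lpar1-EGFP)GX193Gsat, began on FVB/N-Swiss Webster and was rederived into C57BL/6 by in vitro fertilisation, and every library carries it, so no library comes from mice without the transgene. In stem libraries the cells carried LPA1-GFP, the growth factor receptor EGFR and the membrane glycoprotein Prominin1. Progenitor libraries held GFP-positive cells with the other 3 combinations of those surface markers, and niche libraries held all GFP-negative cells, with n = 4 libraries in each population. RNA of 1000 cells was amplified per library. Whether a library was 1 animal or a pool is not stated in the labels, so the p-values rest on variation between libraries that may in part be technical.

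Astrocytes are glial cells that clear glutamate and potassium from around synapses, pass metabolites to neurons and are joined into networks by gap junctions. In the dentate gyrus the radial glia-like stem cells that give rise to new neurons use many of the same genes as mature astrocytes, so these markers do not belong to astrocytes alone. Aldoc encodes aldolase C, the brain isozyme of a glycolytic enzyme. S100b encodes a small calcium-binding protein that astrocytes also secrete and that cells of the oligodendrocyte lineage make as well. Clu encodes clusterin, a secreted chaperone also known as apolipoprotein J, which is made by other brain cells too, among them ependyma and choroid plexus. Gja1 encodes the connexin that forms most gap junctions between astrocytes and is also used by vascular and meningeal cells. Chil1 encodes a secreted, chitinase-like glycoprotein that binds sugars without cutting chitin.

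All 5 genes lie on the plus strand of the genome build GRCm38, with spans as in the GENCODE annotation. Aldoc (ENSMUSG00000017390) spans chr11:78322968-78327781, S100b (ENSMUSG00000033208) chr10:76253853-76261159 and Gja1 (ENSMUSG00000050953) chr10:56377330-56402513. Clu (ENSMUSG00000022037) spans chr14:65968483-65981547 and Chil1 (ENSMUSG00000064246) chr1:134182176-134190181. Reads were counted over exons, and in this annotation no other gene shares exon bases with any of the 5. The exon lengths behind the deposited values differ from it for Clu, Gja1 and Chil1, for Gja1 at 3105 against 10257 bases. The exons that were counted could therefore not be checked for these 3 genes.

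The stretches just before the RefSeq starts (GRCm38.p6, plus strand, 5′ to 3′) are shown because all of these genes had their lowest mean in stem. Of the 5 genes, 4 had an entry by symbol, and Clu had none. Windows were 250 bases, and of the first Aldoc window only the 145 bases before the GENCODE start are printed. Capitals mark matches to the motifs searched, on either strand. The windows printed are chr11:78322823-78322967 for Aldoc, chr10:76253586-76253835 for S100b, chr10:56377050-56377299 for Gja1 and chr1:134181906-134182155 for Chil1.
Aldoc: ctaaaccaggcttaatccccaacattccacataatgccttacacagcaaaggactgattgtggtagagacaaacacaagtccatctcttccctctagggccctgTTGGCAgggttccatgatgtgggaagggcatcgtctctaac
S100b: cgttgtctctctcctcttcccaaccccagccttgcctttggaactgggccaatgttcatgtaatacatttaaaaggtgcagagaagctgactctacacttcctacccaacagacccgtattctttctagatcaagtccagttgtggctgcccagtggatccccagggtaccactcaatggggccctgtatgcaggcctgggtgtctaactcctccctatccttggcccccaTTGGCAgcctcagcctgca
Gja1: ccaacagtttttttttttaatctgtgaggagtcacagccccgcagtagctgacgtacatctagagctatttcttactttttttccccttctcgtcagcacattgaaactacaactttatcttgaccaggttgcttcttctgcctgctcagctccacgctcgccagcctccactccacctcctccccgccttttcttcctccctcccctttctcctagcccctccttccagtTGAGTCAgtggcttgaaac
Chil1: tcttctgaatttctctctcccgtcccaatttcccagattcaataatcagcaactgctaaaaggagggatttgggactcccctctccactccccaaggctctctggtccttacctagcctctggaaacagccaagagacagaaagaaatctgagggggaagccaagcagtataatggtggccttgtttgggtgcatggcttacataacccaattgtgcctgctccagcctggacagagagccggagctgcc

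The motifs were a nuclear factor I half-site (TTGGCA), STAT (TTCNNNGAA), SOX (ACAATG), AP-1 (TGANTCA), a hypoxia element core (ACGTG) and the TATA box (TATAAA). None of the 6 contains another. Aldoc held 1 nuclear factor I half-site at -146 to -141 from the RefSeq start, and S100b held 1 at -19 to -14. Gja1 held 1 AP-1 match at -19 to -13, and the Chil1 window held none of the 6. A second RefSeq start of Aldoc, whose window is not printed, had 2 STAT matches at -124 to -116 and -83 to -75. Over 32851 mouse windows of 250 bases, 12.3% held TTGGCA and 6.75% held TGANTCA. The other motifs were found in 7.02% of windows for STAT, 10.7% for SOX, 16.6% for the hypoxia core and 12.4% for TATA. These matches are letters in a window and were read no further.

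Library depth ran from 7597256 to 22854036 reads, recovered from the deposited log2 values. No molecular identifiers were used before amplification, so read counts are not counts of molecules. The lowest read count of any of the 5 genes was 46, for Chil1 in stem replicate 2, and the highest was 211838, for Clu in progenitor replicate 4. The counts of Clu, Gja1 and Chil1 rest on exon lengths found from the values, whereas levels do not. Niche replicate 1 stood apart from the other libraries. Alpha-globin genes of red cells took 33.0% of its reads, against 2.616% to 10.86% in the other niche libraries and at most 0.2278% in any stem or progenitor library. Its scaling factor was 0.418, against 0.82 to 1.249 elsewhere, so levels in that library were raised more than in any other by the scaling. The values of the 5 genes against niche are therefore also given without it, as are the counts of other astrocyte genes. A level below is reads per kilobase of exon, scaled to a common library total (RPKM) and divided by this factor (the trimmed mean of M-values, TMM). In bulk libraries such as these, fewer cells of a type and less RNA per cell cannot be told apart.

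The 5 genes were lowest in stem libraries, but they did not share 1 pattern. Aldoc, Clu and Chil1 were low in stem and high in both progenitor and niche, whose levels overlapped on the TMM scale. S100b was low in both GFP-positive populations and high in niche. Gja1 lay between these patterns, with progenitor levels above stem and below niche.

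**Figure D1:**
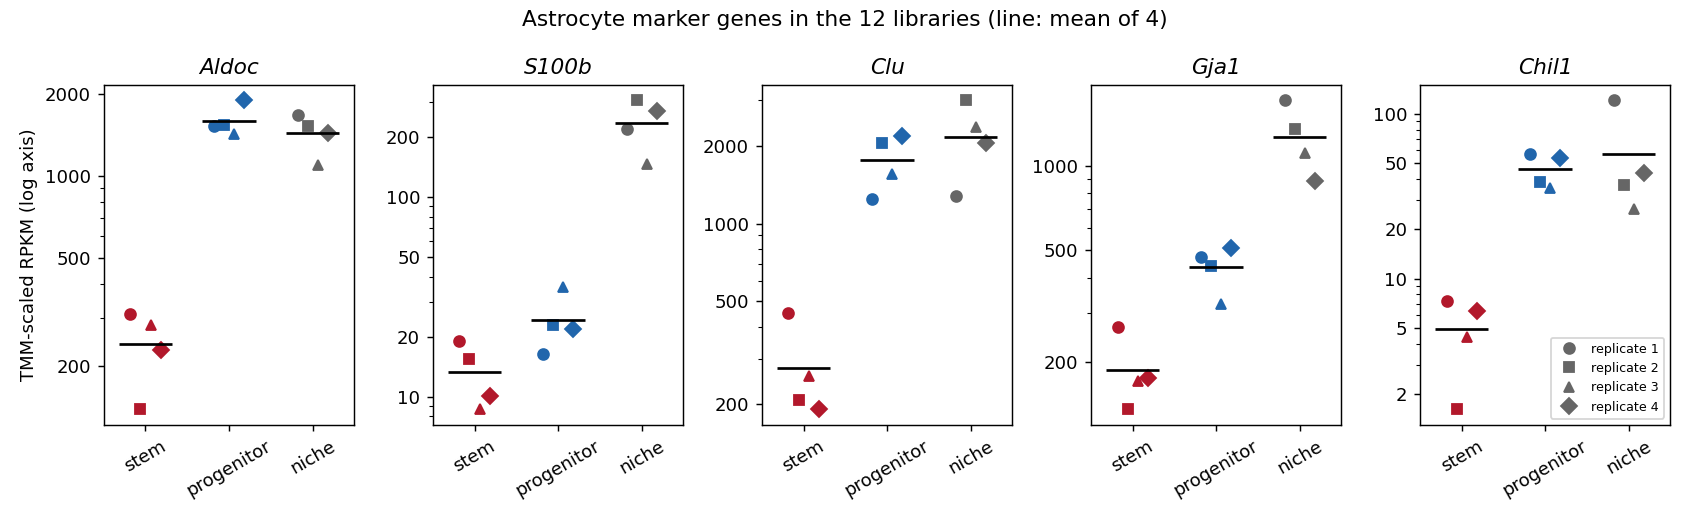
Level of each gene in every library (TMM-scaled RPKM, log axis) for stem, progenitor and niche, with replicates as separate points and the group means as lines. Aldoc, Clu and Chil1 are low in stem alone, S100b is high in niche alone, and Gja1 forms 3 separate steps.

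Aldoc, the aldolase gene, was at 312, 138.5, 284 and 229 RPKM in stem replicates 1 to 4. It was at 1529, 1544, 1428 and 1898 RPKM in progenitor replicates 1 to 4 and at 1681, 1525, 1098 and 1441 RPKM in niche replicates 1 to 4. Every stem library lay below every progenitor and niche library, while progenitor and niche overlapped on this scale. In RPKM as deposited, before TMM scaling, progenitor lay at 1403 to 2357 RPKM and niche at 703 to 1258 RPKM, with no overlap. Mean levels were 241 ± 76.3 RPKM in stem, 1600 ± 205 RPKM in progenitor and 1436 ± 246 RPKM in niche (SD, n = 4 each). The log2 difference was -2.78 ± 0.27 for stem against progenitor and -2.62 ± 0.27 for stem against niche (SE from the fit over all genes), and -2.61 without niche replicate 1. For progenitor against niche it was 0.16 ± 0.27, smaller than its SE, and 0.15 without niche replicate 1. By library size alone it was 0.82 ± 0.27, so whether Aldoc was alike or higher in progenitor depended on the scaling. Even in stem, Aldoc was an abundant RNA, above 95.4% of tested genes, and it reached the 99.3 percentile in progenitor and the 99.1 percentile in niche.

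Chil1, the chitinase-like gene, was at 7.31, 1.60, 4.44 and 6.38 RPKM in stem replicates 1 to 4, the lowest levels of the 5 genes. It was at 56.8, 38.7, 35.5 and 54.3 RPKM in progenitor and at 120.9, 36.9, 26.5 and 43.6 RPKM in niche. No stem library reached the range of the others. On the TMM scale progenitor lay within the wide range of niche, whose top value came from niche replicate 1. In RPKM as deposited, progenitor lay at 44.4 to 67.4 RPKM and niche at 25.4 to 50.5 RPKM, which overlapped in part. The mean was 4.93 ± 2.52 RPKM in stem, 46.3 ± 10.8 RPKM in progenitor and 56.95 ± 43.2 RPKM in niche (SD, n = 4 each). Its log2 difference was -3.10 ± 0.49 for stem against progenitor, the largest of the 5 in that comparison, and -3.17 ± 0.49 for stem against niche. For progenitor against niche it was -0.07 ± 0.49. Without niche replicate 1 that last value was 0.27 and stem against niche -2.82. Over all 22 alternatives of processing the progenitor to niche value ran from -0.44 to 0.57, so no direction between progenitor and niche is given for Chil1. Among tested genes Chil1 stood at the 40.8 percentile in stem, the 83.7 percentile in progenitor and the 84.2 percentile in niche.

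Clu, the clusterin gene, was at 452, 208, 258 and 191 RPKM in stem replicates 1 to 4. Progenitor replicates 1 to 4 had 1240.2, 2048, 1560.4 and 2185.5 RPKM, and niche replicates 1 to 4 had 1279.5, 2991, 2353 and 2053 RPKM. Stem was again clear of both other groups, which overlapped. In RPKM as deposited, stem replicate 1, at 558 RPKM, lay above niche replicate 1, at 535 RPKM. Replicate 1 was the lowest library of Clu in progenitor and in niche. Clu averaged 277 ± 119.8 RPKM in stem, 1759 ± 437.5 RPKM in progenitor and 2169 ± 711 RPKM in niche (SD, n = 4 each). Its log2 difference was -2.71 ± 0.33 for stem against progenitor and -2.99 ± 0.33 for stem against niche, or -3.29 without niche replicate 1. The progenitor to niche difference was -0.27 ± 0.33, and -0.60 without niche replicate 1. By library size alone it was 0.38, the opposite sign, so no direction between progenitor and niche is given for Clu.

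Gja1, the connexin gene, was at 267, 136, 171 and 175 RPKM in stem replicates 1 to 4. It was at 474, 441, 321 and 509 RPKM in progenitor and at 1714, 1355, 1116 and 886 RPKM in niche. The 3 populations formed 3 separate steps with no overlap between any pair. Means were 187 ± 56.2 RPKM in stem, 436 ± 81.8 RPKM in progenitor and 1267 ± 354 RPKM in niche (SD, n = 4 each). The log2 difference was -1.24 ± 0.29 for stem against progenitor, -2.76 ± 0.29 for stem against niche and -1.52 ± 0.29 for progenitor against niche. Without niche replicate 1, which had the highest level, the values against niche were -2.67 for stem and -1.45 for progenitor. By library size alone the progenitor to niche value was -0.86 ± 0.24, still with no overlap, and niche replicate 1 was then the lowest niche library, at 716 RPKM.

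S100b, the calcium-binding protein gene, was at 19.1, 15.5, 8.67 and 10.1 RPKM in stem replicates 1 to 4. It was at 16.4, 23.0, 35.3 and 22.0 RPKM in progenitor and at 220, 305, 147 and 269 RPKM in niche. The stem and progenitor ranges overlapped, and every niche library lay far above both. S100b averaged 13.3 ± 4.85 RPKM in stem, 24.2 ± 7.97 RPKM in progenitor and 235 ± 68.3 RPKM in niche (SD, n = 4 each). For stem against progenitor the log2 difference was -0.83 ± 0.36, the smallest of the 5. For stem against niche it was -4.05 ± 0.36, the largest of the 5 there, and for progenitor against niche -3.23 ± 0.36. Without niche replicate 1 the last 2 values were -4.15 and -3.34. S100b stood at the 63.2 percentile of tested genes in stem, the 74.8 percentile in progenitor and the 94.8 percentile in niche.

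Counted by overlap alone, 4 of the 5 genes were lower in every stem library than in every progenitor library, S100b being the exception. The background was 13.2% of the 8360 tested genes with stem lower and no overlap, and 11.5% with stem higher. All 5 were lower in every stem library than in every niche library, or 4 of 5 without TMM scaling, Clu being the exception, where the background was 10.4% lower and 12.3% higher. S100b and Gja1, or 2 of the 5, were lower in every progenitor library than in every niche library, where it was 6.81% lower and 8.79% higher. Since the genes were chosen on these contrasts, nothing is read from those counts. The median log2 difference of the 5 was -2.71 for stem against progenitor, -2.99 for stem against niche and -0.27 for progenitor against niche. The medians over all tested genes were -0.06, 0.09 and 0.15. Scaling by library size alone moved the all-gene medians to 0.58 for stem against niche and 0.62 for progenitor against niche, and the medians of the 5 genes to -2.29 and 0.38. The 3 comparisons share groups, so their values are not independent of each other.

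**Figure D2:**
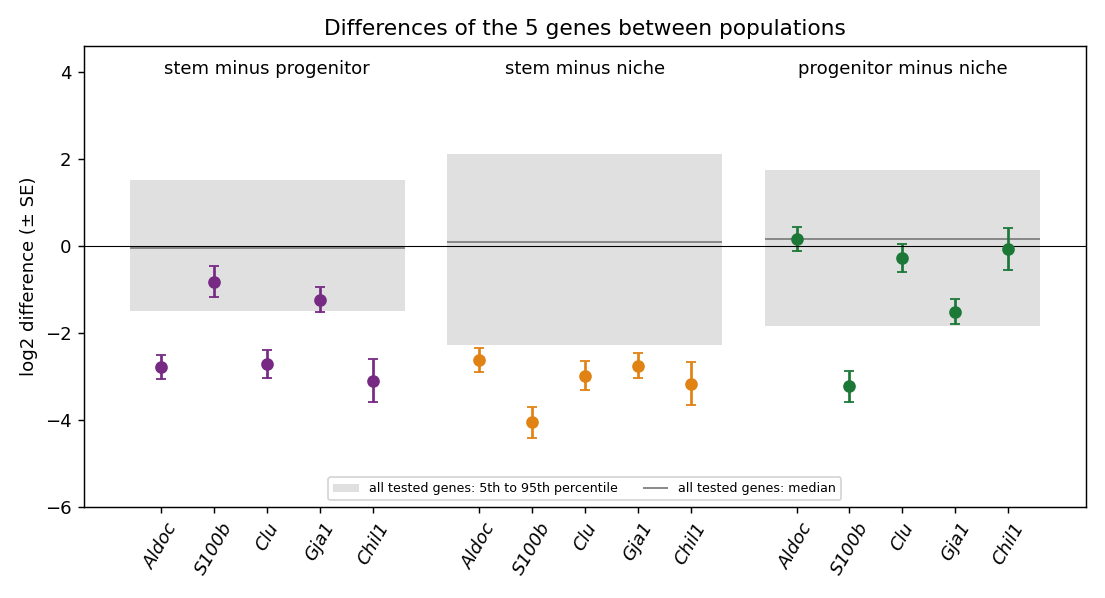
Log2 difference of each gene with its SE for stem minus progenitor, stem minus niche and progenitor minus niche, over grey bands that span the 5th to 95th percentile of all tested genes. All 5 genes lie below the band for stem minus niche, and in progenitor minus niche only S100b, at -3.23, does.

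Among stem libraries, the 5 genes varied together in part. Replicate 1 had the highest level of all 5 genes, and replicate 2 the lowest of Aldoc, Gja1 and Chil1. The summed level of the 5 was 1057.1, 498.95, 726 and 611.44 RPKM in stem replicates 1 to 4. In progenitor the sum was 3316.5, 4095.2, 3380 and 4669.1 RPKM, and in niche it was 5014.7, 6213, 4740.9 and 4691.5 RPKM. The summed level of 8 microglia and macrophage markers was 3778, 9970, 2968 and 2526 RPKM in the same stem libraries, so replicate 2 was the highest for those markers and the lowest for the 5 genes together. Between populations the markers summed to 129 to 288 RPKM in progenitor and 3393 to 5845 RPKM in niche, which overlapped stem. The part of these cells in the stem values was not tested. Aldoc varied least between replicates in progenitor and niche, with coefficients of variation of 12.8% and 17.15%, and Gja1 did so in stem (30.05%). Chil1 varied most in stem (51.2%) and in niche (75.9%), while S100b, at 32.9%, did so in progenitor.

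Ratios within a library do not depend on library scaling. The Aldoc to Clu ratio lay between 0.667 and 1.20 in stem, between 0.754 and 1.23 in progenitor and between 0.467 and 1.31 in niche. These ranges overlapped for every pair of populations, while the mean levels of both genes were several-fold lower in stem than in the other populations. The Aldoc to Gja1 ratio did not: it lay between 1.02 and 1.66 in stem, between 3.23 and 4.45 in progenitor and between 0.981 and 1.63 in niche. Progenitor libraries stood alone with about 3 to 4 times as much Aldoc as Gja1, and stem and niche overlapped. The Clu to Gja1 ratio was likewise higher in progenitor, at 2.62 to 4.86, than in stem, at 1.095 to 1.69, or niche, at 0.747 to 2.32.

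The Aldoc to S100b ratio separated all 3 populations. It lay between 8.94 and 32.8 in stem, between 40.4 and 93.0 in progenitor and between 5.001 and 7.64 in niche, with no overlap. S100b relative to Gja1 was 0.0507 to 0.114 in stem and 0.0347 to 0.110 in progenitor, which overlapped, and 0.128 to 0.304 in niche, above both. As a share of the summed level of the 5 genes, Gja1 made up between 23.56% and 28.59% in stem, between 9.492% and 14.28% in progenitor and between 18.88% and 34.17% in niche. S100b made up between 1.194% and 3.105% in stem, between 0.4715% and 1.046% in progenitor and between 3.103% and 5.73% in niche. In progenitor libraries both shares lay below those of every stem and niche library.

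**Figure D3:**
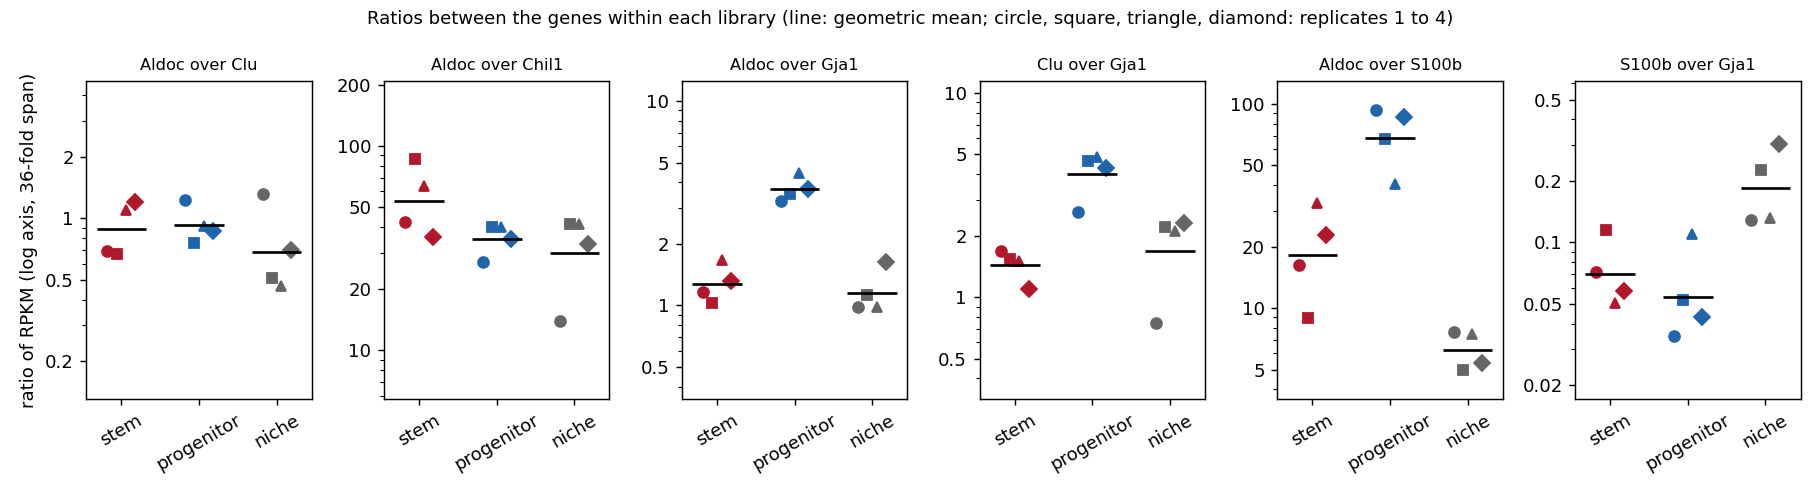
Ratio of RPKM between pairs of the 5 genes within each library (log axis, the same fold span in every panel), for stem, progenitor and niche. Lines are geometric means and the 4 symbols are replicates 1 to 4. The Aldoc to Clu ratio overlaps in all groups, and the Aldoc to Gja1 ratio is 3.23 or more in every progenitor library.

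The genes whose patterns over the 12 libraries were most like each of the 5 were ranked by the root mean square difference of log2 levels, centred on the mean, among 3865 genes with a mean level of at least 10 RPKM. For Aldoc they were the cannabinoid receptor gene Cnr1 (0.38), the membrane protein gene Ttyh1 (0.38) and the S100 family gene S100a6 (0.39), against a median of 1.49 over the candidates. Clu came at rank 11 (0.47) and Chil1 at rank 12 (0.49), but Gja1 at rank 98 and S100b at rank 1870. Aldoc was the gene most like Clu (0.47), followed by Hspa2, a heat shock protein gene (0.49), and Enc1 (0.51). Aldoc was also rank 2 for Chil1 (0.49), after the predicted gene Gm14341 (0.47) and before Olfml1 (0.53).

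Genes close to Gja1 were the kinase gene Fyn (0.36) and Acsl3, which activates fatty acids (0.37), and the other members came at ranks 303 to 506. Genes close to S100b were the mitochondrial creatine kinase gene Ckmt1 (0.51) and the noncoding Chn1os1 (0.53). Counting of Chn1os1 may include reads of the gene it lies opposite, since the use of strand is not known. Of the other members, Gja1 came closest to S100b, at rank 69 (0.90). These are descriptions over libraries that share their groups, and they carry no test.

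Other astrocyte genes were taken from 8 lists by role, 152 genes beside the 5, of which 74 were listed and 72 tested. The call was a limma adjusted p under 0.05, adjusted over all 8360 genes. For stem against progenitor, 26 were lower, 2 were higher (Cd38 and Cp) and 44 were not called. The background was 3.4% of all tested genes lower and 3.71% higher. For stem against niche, 38 were lower, 5 were higher and 29 were not called, against 10.7% lower and 10.9% higher in the background. For progenitor against niche, 15 were lower, 7 were higher and 50 were not called, against 5.78% lower and 5.68% higher. In either direction the background was 7.11%, 21.6% and 11.5% for the 3 comparisons. The 28 calls for stem against progenitor were 18 without stem replicate 4, 17 without progenitor replicate 4 and 37 without niche replicate 1. Without niche replicate 1 there were 52 for stem against niche and 29 for progenitor against niche. The 22 calls for progenitor against niche were 13, 12 and 14 without progenitor replicate 2, 3 or 4. The median log2 difference of the 72 was -1.01 for stem against progenitor, -1.52 for stem against niche and -0.39 for progenitor against niche, beside -0.06, 0.09 and 0.15 over all tested genes. By library size alone the counts were 27 lower and 2 higher for stem against progenitor, 31 lower and 13 higher for stem against niche, and 10 lower and 13 higher for progenitor against niche. Over all tested genes, library size alone gave 2017 higher and 586 lower for stem against niche (910 and 896 with TMM) and 1525 higher and 314 lower for progenitor against niche (475 and 483 with TMM). Without niche replicate 1, all 28 calls for stem against progenitor, 42 of 43 for stem against niche and all 22 for progenitor against niche were made again with the same sign. The call lost was that of the receptor gene Megf10. No gene of the lists that was called with TMM had the other sign under either of the other scalings.

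Transport and cell junctions are the roles nearest to that of Gja1. Of 9 genes of glutamate and GABA handling, 4 were lower in stem than in progenitor, 7 lower in stem than in niche and 4 lower in progenitor than in niche. In progenitor against niche, 2 were lower and 1 was higher by library size alone. Slc7a10, an amino acid transporter gene, was at 4.97 ± 1.87 RPKM in stem, 16.4 ± 6.06 RPKM in progenitor and 54.9 ± 19.4 RPKM in niche. Its log2 difference was -1.55 ± 0.43 for stem against progenitor (limma adjusted p = 0.0401), -3.21 ± 0.43 for stem against niche (7.185e-05) and -1.66 ± 0.43 for progenitor against niche (0.0216). Slc7a10 was not called for stem against progenitor with median-of-ratios scaling (adjusted p = 0.0742) or voom (0.1025), nor for progenitor against niche by library size alone (0.0826). Slc25a18, a mitochondrial glutamate carrier gene, was at 139 ± 49.0 RPKM in stem and 141.5 ± 56.3 RPKM in niche (-0.03 ± 0.35, limma adjusted p = 0.968). Glul, the glutamine synthetase gene, was at 173 ± 65.8 RPKM in stem and 212 ± 70.9 RPKM in progenitor and was not called there (adjusted p = 0.775). Of 6 genes of junctions, channels and pumps, 2 were lower in stem than in progenitor, 4 lower in stem than in niche and 2 lower in progenitor than in niche. Only 1 was lower in stem than in progenitor by library size alone and with median-of-ratios scaling, with the call of Hepacam lost. Likewise 1 was lower in progenitor than in niche under both, with the call of Cldn10 lost. Cldn10, a claudin gene of tight junctions, was at 27.3 ± 6.59 RPKM in stem, 135 ± 49.99 RPKM in progenitor and 405 ± 297 RPKM in niche. Slc4a4, a sodium bicarbonate cotransporter gene, was at 3.16 ± 1.90 RPKM in stem, 6.81 ± 0.716 RPKM in progenitor and 46.0 ± 21.1 RPKM in niche. Slc4a4 was called against niche for stem (-3.47 ± 0.46) and for progenitor (-2.46 ± 0.46, limma adjusted p = 0.00221).

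Metabolic genes are the nearest in role to Aldoc. Of 8 astrocyte metabolic enzyme genes, 3 were lower in stem than in progenitor and 5 lower in stem than in niche. Between progenitor and niche limma called 0, with 2 lower at an unadjusted p under 0.05, 1 lower with voom and 2 lower without niche replicate 1. Acsl3 was at 12.1 ± 1.93 RPKM in stem, 44.4 ± 11.3 RPKM in progenitor and 72.9 ± 17.1 RPKM in niche (-1.77 ± 0.33 for stem against progenitor, limma adjusted p = 0.00330). Acsl6, of the same family of fatty acid activating enzymes, was at 8.87 ± 3.68 RPKM in stem, 29.5 ± 10.9 RPKM in progenitor and 46.1 ± 5.25 RPKM in niche. Pygb, which breaks down glycogen, was at 69.5 ± 19.9 RPKM in stem and 78.6 ± 26.0 RPKM in niche and was not called (adjusted p = 0.773).

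Of 6 other glycolysis genes tested, limma called 0 for stem against progenitor, as did voom and an unadjusted p under 0.05, and library size alone gave 1 higher, Ldha (0.65, adjusted p = 0.0442). Their median log2 difference there was 0.18, beside -2.78 for Aldoc. For progenitor against niche, where the Aldoc ranges overlapped on the TMM scale, 3 were lower, or 1 by library size alone. Eno1, the enolase gene, was at 228 ± 32.3 RPKM in stem, 210 ± 43.4 RPKM in progenitor and 464 ± 19.1 RPKM in niche. Its log2 difference was 0.13 ± 0.24 for stem against progenitor, -1.03 ± 0.24 for stem against niche (limma adjusted p = 0.00614) and -1.16 ± 0.24 for progenitor against niche (0.00499). By library size alone Eno1 was no longer called in either. Ldha, the lactate dehydrogenase gene, was at 111 ± 15.2 RPKM in progenitor and 323 ± 178 RPKM in niche (-1.39 ± 0.32, limma adjusted p = 0.0108). The other aldolase genes were not analysed here.

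Secreted factors, the nearest in role to Clu and Chil1, had the lowest medians of the 8 lists, at -1.91, -3.78 and -1.59 for stem against progenitor, stem against niche and progenitor against niche. Of 6, 5 were lower in stem than in progenitor, 6 lower in stem than in niche and 3 lower in progenitor than in niche. Htra1, a secreted protease gene, was at 7.95 ± 4.56 RPKM in stem, 35.9 ± 10.4 RPKM in progenitor and 319 ± 120 RPKM in niche (-5.20 ± 0.41 for stem against niche, limma adjusted p = 7.47e-07). F3, the tissue factor gene, was at 10.7 ± 4.73 RPKM in stem, 34.6 ± 4.61 RPKM in progenitor and 224 ± 81.3 RPKM in niche (-4.29 ± 0.35 for stem against niche, limma adjusted p = 8.78e-07). Gpc5, a glypican gene, was at 2.10 ± 0.642 RPKM in stem and 13.4 ± 3.99 RPKM in progenitor (-2.20 ± 0.45, limma adjusted p = 0.00662). Pla2g7, a lipase gene, was at 318 ± 142 RPKM in stem and 615 ± 85.6 RPKM in progenitor, with a limma adjusted p of 0.0699. Pla2g7 was called lower in stem by library size alone (0.0239), with voom (0.0253) and without niche replicate 1 (0.0266).

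Receptors and surface proteins were lower in stem in 4 of 11 cases against progenitor and 7 of 11 against niche, and 3 were lower in progenitor than in niche. Against niche, 4 were lower and 1, Cd38, was higher in stem by library size alone. Slc39a12, a zinc transporter gene, was at 4.82 ± 2.86 RPKM in stem, 24.1 ± 4.55 RPKM in progenitor and 129 ± 94.4 RPKM in niche. The exception was Cd38, an ectoenzyme gene that leukocytes also express, at 74.0 ± 52.6 RPKM in stem and 3.58 ± 2.07 RPKM in progenitor (3.95 ± 0.61, limma adjusted p = 0.000922). The 8 microglia and macrophage markers were also higher in stem than in progenitor, at 2526 to 9970 RPKM summed against 129 to 288 RPKM. In niche these markers summed to 3393 to 5845 RPKM, within the stem range, while Cd38 was at 20.96 ± 13.78 RPKM. Cd38 was not called for stem against niche with TMM (limma adjusted p = 0.0519). The part of microglia and macrophages in the Cd38 values was not tested.

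Among 8 genes of the cytoskeleton, calcium binding and metal binding, 4 were lower in stem than in progenitor and 5 lower in stem than in niche. Between progenitor and niche limma called 0, with 1 higher and 1 lower at an unadjusted p under 0.05 and 1 lower with voom. With library size alone, 3 were higher in progenitor than in niche, where the list median was 0.61, against -0.05 with TMM. Mt3, a metallothionein gene, was at 645 ± 172 RPKM in stem, 2689 ± 600 RPKM in progenitor and 3574 ± 833 RPKM in niche. Its log2 difference was -2.07 ± 0.27 for stem against progenitor (limma adjusted p = 0.000207) and -2.48 ± 0.27 for stem against niche (9.46e-06). Mt2 was at 497 ± 180 RPKM in stem, 807 ± 175 RPKM in progenitor and 692 ± 122 RPKM in niche and was called in neither (adjusted p = 0.180 and 0.219).

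Transcription factors were split. Of 13, 2 were lower in stem than in progenitor. Against niche, 3 were higher and 3 lower in stem, and 4 were higher and 1 lower in progenitor. The background there was 10.9% higher and 10.7% lower for stem, and 5.68% higher and 5.78% lower for progenitor. The list median was 0.77 for stem against niche. Scaled by library size alone, 7 were higher and 3 lower in stem than in niche, with a median of 1.35, and 6 were higher and 1 lower in progenitor than in niche. Without niche replicate 1 the median for stem against niche was 0.43, with 5 higher and 3 lower. With median-of-ratios scaling 1 was lower in stem than in progenitor. Nfia, which drives astrocyte formation, was at 330.5 ± 54.3 RPKM in stem, 368 ± 43.6 RPKM in progenitor and 102 ± 36.2 RPKM in niche. Its log2 difference was -0.16 ± 0.30 for stem against progenitor (limma adjusted p = 0.887), 1.75 ± 0.30 for stem against niche (0.000528) and 1.91 ± 0.30 for progenitor against niche (0.000505). Sox9, a glial and stem cell factor, was at 157 ± 35.4 RPKM in stem, 184 ± 31.3 RPKM in progenitor and 99.6 ± 26.8 RPKM in niche and was not called in any comparison by limma with TMM (adjusted p = 0.800, 0.110 and 0.0530). Sox9 was higher than in niche in stem (0.0115) and in progenitor (0.00793) by library size alone. Zbtb20 was at 61.4 ± 25.2 RPKM in progenitor and 17.5 ± 10.1 RPKM in niche (1.92 ± 0.50, limma adjusted p = 0.0209, and 1.27 without niche replicate 1). Id3, an inhibitor of helix-loop-helix factors, was at 31.2 ± 15.96 RPKM in stem, 126 ± 99.4 RPKM in progenitor and 527 ± 324 RPKM in niche (-4.00 ± 0.51 for stem against niche, limma adjusted p = 4.63e-05).

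Genes of reactive astrocytes, the state with which Chil1 is often associated, were mixed. Of 11, 1 was higher and 2 were lower in stem than in progenitor, 2 higher and 1 lower in stem than in niche, and 3 higher and 2 lower in progenitor than in niche. For stem against niche there were 4 higher and 1 lower by library size alone, and 2 higher and 5 lower without niche replicate 1. Over all tested genes the shares higher and lower were 3.71% and 3.4%, 10.9% and 10.7%, and 5.68% and 5.78% in the 3 comparisons. With 11 genes, nothing is read from these counts. Ptx3, a secreted pattern recognition protein gene, was at 17.4 ± 4.78 RPKM in stem, 34.1 ± 19.1 RPKM in progenitor and 0.671 ± 0.529 RPKM in niche (3.47 ± 0.46 for stem against niche and 4.31 ± 0.46 for progenitor against niche, limma adjusted p = 5.90e-05 and 2.17e-05). Hspb1, a small heat shock protein gene, was at 2.62 ± 1.38 RPKM in stem and 28.2 ± 17.8 RPKM in niche (-2.91 ± 0.52, limma adjusted p = 0.000786). Serpina3n was at 8.38 ± 4.43 RPKM in stem and 15.8 ± 11.1 RPKM in progenitor and was not called (adjusted p = 0.875).

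**Figure D4:**
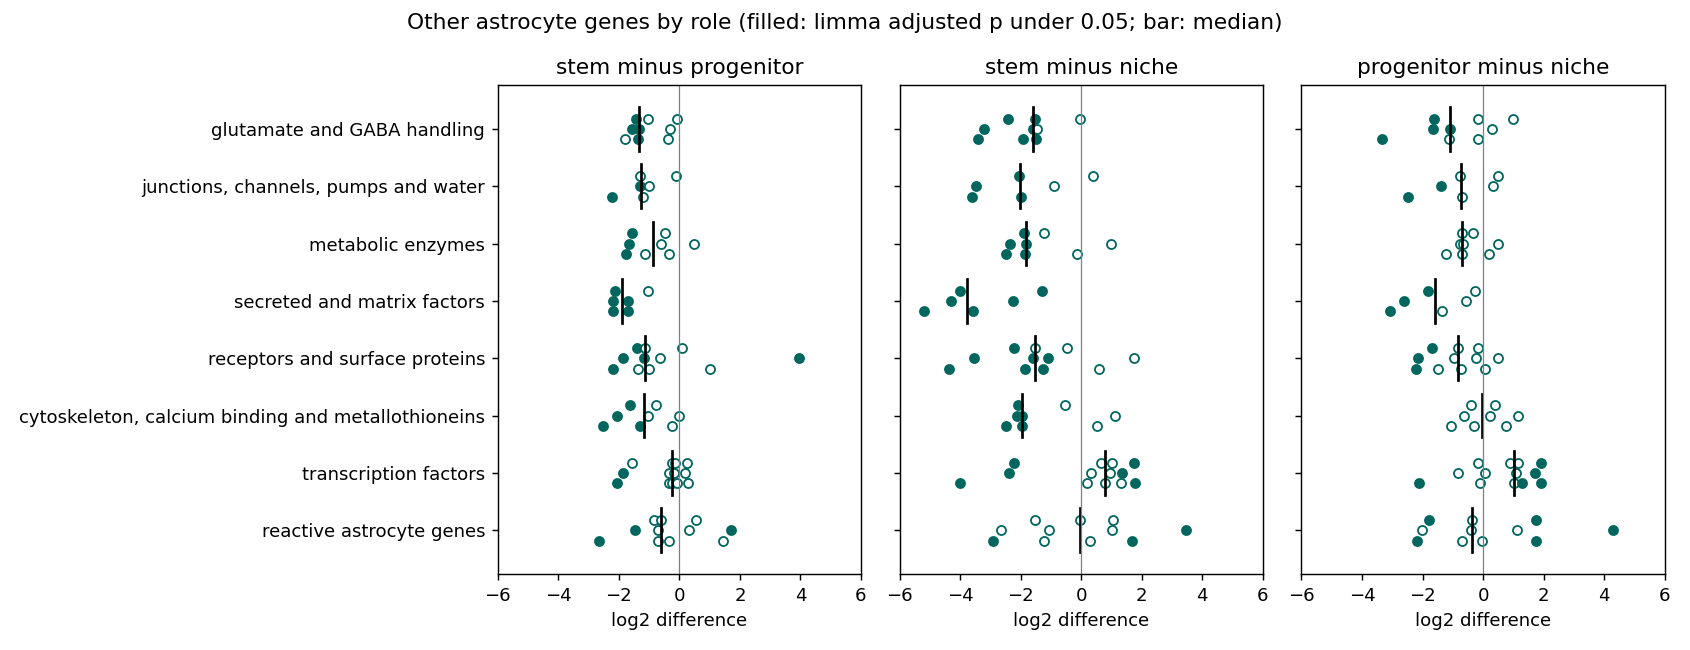
Log2 difference of every other astrocyte gene tested, by role, for stem minus progenitor, stem minus niche and progenitor minus niche; filled points have a limma adjusted p under 0.05 and the bar is the median of the role. Most roles lie left of 0 in both stem comparisons, and the transcription factors lie around or right of 0, with a median of 0.77 for stem minus niche.

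Close relatives of the 5 genes were tested as far as the table lists them. Of 15 other S100 genes, 10 were listed and 7 tested. S100a6 was at 39.3 ± 10.5 RPKM in stem, 238 ± 104 RPKM in progenitor and 179 ± 61.4 RPKM in niche, an order like that of Aldoc. S100a6 was lower in stem than in progenitor (log2 difference -2.53 ± 0.35, limma adjusted p = 0.000401) and lower in stem than in niche (-2.13 ± 0.35, 0.000431). Between progenitor and niche it was not called with TMM (0.39 ± 0.35, 0.501), and was higher in progenitor by library size alone (1.04, 0.0189). S100a16 was at 164.5 ± 44.2 RPKM in stem, 416 ± 147.5 RPKM in progenitor and 669 ± 321 RPKM in niche, and S100a13 was at 86.6 ± 20.5 RPKM in stem, 189 ± 90.9 RPKM in progenitor and 382 ± 131 RPKM in niche. S100a10, which partners annexins, was at 246.5 ± 170 RPKM in progenitor and 63.6 ± 13.5 RPKM in niche (1.75 ± 0.38, limma adjusted p = 0.00752). Limma called 0 of the 7 lower in progenitor than in niche, and 1 was lower at an unadjusted p under 0.05 and 1 with voom. With library size alone, 3 of the 7 were higher there. S100b had a log2 difference of -3.23 there with TMM, and of -3.53 to -2.58 over all alternatives of processing.

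Of 21 other connexin and pannexin genes, 3 were listed and 2 tested. Gjb1, a connexin gene of oligodendrocytes, was at 6.29 ± 6.06 RPKM in stem, 51.3 ± 47.3 RPKM in progenitor and 143 ± 187 RPKM in niche, with a far wider spread than Gja1. It was called for stem against niche (-3.95 ± 0.83, limma adjusted p = 0.00293, and -3.27 without niche replicate 1), and by library size alone also for stem against progenitor (0.0264). Panx2 was at or below 5.16 RPKM in every library and was not called by limma with TMM (adjusted p = 0.0586 for stem against niche). It was lower in stem than in niche with median-of-ratios scaling (0.0488) and without niche replicate 1 (0.000949). Of 8 other chitinase and chitinase-like genes, 3 were listed and 2 tested, Ctbs and Chit1, and neither was called in any comparison by limma, by voom or at an unadjusted p under 0.05. Chit1 was at 0.613 ± 0.314 RPKM in stem, 0.450 ± 0.250 RPKM in progenitor and 1.30 ± 0.799 RPKM in niche, below Chil1 in each population. Of 6 tested genes of lipoprotein handling, the setting in which clusterin works, Vldlr was lower in stem than in progenitor (-1.67 ± 0.45, limma adjusted p = 0.0344). Vldlr was also lower in stem than in niche (-2.88, limma adjusted p = 0.000284). The microglial receptor gene Trem2 was higher in stem than in progenitor (3.598 ± 0.383, limma adjusted p = 5.85e-05). Against niche, Trem2 was lower in progenitor (-5.01, limma adjusted p = 2e-06) and in stem (-1.41, 0.0155). The call for stem against niche was lost by library size alone. The cholesterol transporter gene Abcg1 was at 40.9 ± 19.9 RPKM in stem, 51.7 ± 12.3 RPKM in progenitor and 186 ± 25.1 RPKM in niche (-2.30 ± 0.36 for stem and -1.85 ± 0.36 for progenitor against niche, limma adjusted p = 0.000309 and 0.00338).

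Markers of other cell types differed between the same groups, and their part in the values of the 5 genes was not tested. The 8 oligodendrocyte markers found, of 18, summed to 149 to 637 RPKM in stem, 2238 to 6473 RPKM in progenitor and 2716 to 6462 RPKM in niche, lowest in stem as were Aldoc, Clu and Chil1. The mean of S100b was 9.72-fold lower in progenitor than in niche, where these sums overlapped. The 7 oligodendrocyte precursor markers, of 14, summed to 83.4 to 141 RPKM in stem, 99 to 155 RPKM in progenitor and 169 to 353 RPKM in niche. The 7 choroid plexus markers, of 12, summed to 43.3 to 109.5 RPKM in stem, 101.5 to 506 RPKM in progenitor and 4144 to 9540 RPKM in niche. Most of the niche sum was Ttr, at 38.8 ± 26.7 RPKM in stem, 219 ± 177 RPKM in progenitor and 7362 ± 2465 RPKM in niche, while Clic6 was at 0 in all 4 stem libraries and niche replicate 1. In progenitor, where Ttr averaged 219 RPKM, the Clu levels overlapped those of niche.

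The 6 mural cell markers, of 13, summed to 15.3 to 194.5 RPKM in stem, 710 to 1793 RPKM in progenitor and 629 to 1771 RPKM in niche. The 7 endothelial markers, of 15, summed to 25.7 to 64.7 RPKM in stem, 59.95 to 110.4 RPKM in progenitor and 208.5 to 1094 RPKM in niche, with Cdh5 at 0 in stem replicate 4. The 9 fibroblast and meningeal markers, of 12, summed to 7.55 to 65.7 RPKM in stem, 117 to 302 RPKM in progenitor and 98 to 234 RPKM in niche. The 5 ependymal markers, of 12, summed to 8.82 to 12.1 RPKM in stem, 29.9 to 91.6 RPKM in progenitor and 0.765 to 63.2 RPKM in niche, with Hydin at 0 in all 4 stem libraries and in niche replicates 1 and 2. The lowest ependymal sum, 0.765 RPKM, was in niche replicate 2, where Clu was at 2991 RPKM, its highest level. That is 1 library, and the part of ependymal cells in the Clu levels was not tested.

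Neuronal, stem cell, cell cycle and red cell markers were summed in the same way. The 8 mature neuron markers, of 17, summed to 19.2 to 35.6 RPKM in stem, 31.5 to 67.9 RPKM in progenitor and 125 to 827 RPKM in niche. The 6 markers of young neurons, of 14, summed to 62.7 to 121.5 RPKM in stem, 916.5 to 2412 RPKM in progenitor and 189 to 436 RPKM in niche. The 10 neural stem and radial glia markers, of 20, summed to 601 to 1147 RPKM in stem, 1098 to 2474 RPKM in progenitor and 698.5 to 1378 RPKM in niche. The median log2 level of these 10 genes gave another order. Stem libraries had 4.14 up to 4.99, overlapping progenitor libraries, with 3.74 up to 4.20. Niche libraries, with 2.27 up to 3.76, lay below stem. For stem against niche, limma called 3 higher (Sox1, Egfr and Tfap2c) and 1 lower (Ntsr2), with a median log2 difference of 0.51. For stem against progenitor it called 1 higher (Egfr) and 2 lower (Vnn1 and Ntsr2), with a median of -0.39. Cells were sorted on EGFR, so nothing is read from the Egfr calls. Over all tested genes, 10.9% were higher and 10.7% lower for stem against niche. Those shares were 3.71% and 3.4% for stem against progenitor. The 7 cell cycle markers, of 20, summed to 633 to 1048 RPKM in stem, 175 to 319 RPKM in progenitor and 24.6 to 89.2 RPKM in niche, highest where the 5 astrocyte genes were lowest. The 4 red cell markers, of 8, summed to 242 to 2074 RPKM in stem, 614.5 to 3437 RPKM in progenitor and 37280 to 1079000 RPKM in niche. Niche replicate 1 had the top red cell sum and the top level of Aldoc, Gja1 and Chil1, but the lowest of Clu, within niche. In RPKM as deposited it was instead the lowest niche library for Aldoc (703 RPKM) and Gja1 (716 RPKM), and still the highest for Chil1 (50.5 RPKM).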

How the data were processed

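The deposited table holds 1 value per gene and library on a log2 scale, read as log2(RPKM + 1); genome build GRCm38 (mm10), per the submitters' processing notes. The aligner, the counter and any use of strand were not given in the sources used here. The log was undone and reads were recovered as whole numbers, with 100% of values above 0 whole within 1e-05 reads. The exon length was the annotated one for 1228 genes and was found from the values for 9282, where wholeness is a weaker check. Of 10749 identifiers, 10579 matched a symbol. Genes with a CPM of at least 0.767 in 4 libraries and 15 reads in total were kept (8360). RPKM was divided by TMM factors, and log2(value + 1) was fitted with limma 3.58.1 in R 4.3.3, with 1 mean per group over all 12 libraries, an intensity trend and robust spread, Benjamini-Hochberg adjustment and a two-sided threshold of 0.05. Differences on this scale understate the change of low genes. Counts vary beyond sampling noise in every replicate pair (lowest chi-square per degree of freedom 39.8 in stem, 44.6 in progenitor, 123 in niche), and intervals of counts, where read, cover counting error only. The 5 genes and all lists were chosen with earlier results of these data known. For each role list, the 2 called genes with the largest difference and the most abundant gene not called could be named, some of which are printed. In families any tested gene could be named. For each of the 5 genes the 3 genes most alike in pattern were to be named, and a few of these are not reported here. Markers of other cell types were summed. Alternatives were scaling, pseudocount, filter, libraries left out, a replicate block, the groups in the fit, moderation and voom.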

Additional observations from a re-analysis of the deposited data

Results flagged for a closer look

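Levels of the 5 genes, their ratios and the median of the other astrocyte genes gave 48 groups of 4 libraries, and in 2 of them 1 library lay far from the other 3. Chance alone does this in about 1 of 20 groups. In stem, the ratio of S100b over Chil1 was 9.67 in replicate 2, against 1.58 to 2.616 in the other 3 libraries. The flag was computed on plain ratios. As log2 ratios the values were 3.27 against 0.66 to 1.39, which are less far apart. That library had the lowest Chil1 level, 1.60 RPKM from 46 reads, and an S100b level of 15.5 RPKM, within the range of the other stem libraries. In niche, the ratio of Clu over Gja1 was 0.747 in replicate 1, against 2.109 to 2.317 in the others. After TMM scaling that library had the highest Gja1 level of its group, 1714 RPKM, and the lowest Clu level, 1279.5 RPKM. As deposited it was the lowest for both, at 716 RPKM for Gja1 and 535 RPKM for Clu. It also had 33.0% of its reads from alpha-globin genes, whose part in the ratio was not tested.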

How the results depend on the processing

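Of 330 values of the 5 genes under 22 alternatives, 322 moved by less than 1 SD and 321 kept their sign. The filter, the replicate block, the groups in the fit and the moderation cannot alter these differences. Leaving out 1 library could hardly move a group mean by 1 SD, so these counts say little of robustness. The values that moved were those of Aldoc, S100b, Clu and Gja1 against niche, for stem and for progenitor, each under 1 alternative. By library size alone, the median of the 5 was -2.29 for stem against niche and 0.38 for progenitor against niche (from -0.27, opposite sign), Clu was 0.38 for progenitor against niche, and 1839 genes were called there. Without progenitor replicate 1 and niche replicate 1, calls were 1118 for stem against progenitor, 3007 for stem against niche and 2000 for progenitor against niche. With only the 2 groups compared in the fit, 1413 genes were called for stem against progenitor and 529 for progenitor against niche, and 14 other astrocyte genes in the last. Leaving out 1 library at a time gave 363 (without stem replicate 2) to 1094 (without niche replicate 1) calls for stem against progenitor, 1282 to 2494 for stem against niche and 546 (without progenitor replicate 3) to 1649 (without niche replicate 1) for progenitor against niche. Without progenitor replicate 2 or 4 the last was 560 and 551. Other astrocyte genes called were 17 (without progenitor replicate 4) or 18 (without stem replicate 4) to 37, 40 to 52, and 12 to 29 (13, 12 and 14 without progenitor replicate 2, 3 and 4). Medians of the 5 were -2.93 to -2.54, -3.25 to -2.81 and -0.60 to -0.23. The cause of these shifts was not tested. Whether replicate numbers pair the libraries is not known. Same-numbered libraries correlated at -0.1283 to 0.2064 over 12 pairs, 2 of them over 0.1. In 4 of the 12 pairs the first library correlated best with its own number among 4 candidates. Chance alone gives about 1 in 4. The alpha-globin share was highest in replicate 1 of stem (0.1856%), progenitor (0.2278%) and niche (33.0%), so pairing by number is not excluded. With the replicate block, 607, 1814 and 947 genes and 28, 44 and 23 other astrocyte genes were called for stem against progenitor, stem against niche and progenitor against niche.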
